A study of Mus musculus with 12 samples.

Results

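This account covers 67 genes that encode enzymes and related factors acting on histones or on DNA methylation, out of 36491 genes counted in sorted mouse microglia. The genes were taken by a rule on their symbols, and the rule was chosen with earlier results of these data known. It takes protein-coding genes whose symbol starts with Kdm, Kmt, Hdac, Setd or Prdm followed by a digit, together with Dnmt1, Dnmt3a, Dnmt3b, Tet1, Tet2, Tet3, Ezh1 and Ezh2. A further 2 symbols fit the letters but are a pseudogene (Kdm4dl) and an antisense transcript (Kdm6bos) and were left out. By role the set holds 11 histone deacetylases, 18 lysine demethylases, 16 lysine methyltransferases of the Kmt and Setd families, the catalytic subunits of the Polycomb repressive complex PRC2 (Ezh1 and Ezh2), 3 DNA methyltransferases, 3 TET dioxygenases and 14 PRDM factors.

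Acetyl groups on histone tails loosen chromatin and attract bromodomain proteins, and histone deacetylases remove them, mostly within corepressor complexes. Methyl groups on histone lysines are placed by SET domain enzymes and removed by Kdm enzymes, and their meaning depends on the residue: methylation of H3 lysine 4 marks active promoters and enhancers, and trimethylation of H3 lysine 27, placed by PRC2, marks silenced genes. DNA methyltransferases methylate cytosine in CpG dinucleotides and TET enzymes oxidise that mark. In macrophages and microglia several of these genes are themselves inflammatory response genes, of which the H3 lysine 27 demethylase gene Kdm6b is the best known.

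The libraries came from microglia isolated by magnetic sorting from the brains of wild-type C57BL/6J mice aged 6 months. Every animal had a bone marrow transplant and then 2 weeks of food with PLX5622, which blocks the CSF1 receptor on which microglia depend for survival, followed by 6 weeks of ordinary chow. The 4 groups of 3 libraries differed in whether the head was shielded at the transplant (a shield is used to spare the brain the conditioning irradiation) and in whether the mice received 50 µg of lipopolysaccharide (LPS, from the outer membrane of Gram-negative bacteria and sensed by Toll-like receptor 4) or saline into the peritoneum 6 hours before sorting. The labels do not say whether the libraries of a group are separate animals, so the p-values measure the spread between these libraries, which may be technical. They name neither the marrow donor nor the share of donor cells in a brain.

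For 2 libraries, shielded no LPS 2 and 3, the title places them without LPS while the treatment field says LPS. The groups here follow the titles. All 10 genes of an LPS-response list, chosen with earlier results known, rose after LPS in shielded and in unshielded mice. The list's mean log2 CPM (read counts scaled to a common library size) ran from 2.94 to 3.75 in the 3 shielded no LPS libraries. It ran from 8.10 to 8.66 after LPS with the shield. In unshielded mice it ran from 3.15 to 4.51 without LPS and from 7.34 to 7.89 after LPS. The libraries with the conflicting label therefore lay with the other libraries titled as no LPS. Regrouping them by the treatment field left 0 of the 42 calls among these genes for LPS in shielded mice. It also left 0 of all 18875 tested genes called there. Values with both libraries left out are given with the limits of each comparison.

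Library totals ran from 18090977 to 60495968 counts. The 12 microglia markers were detected in all libraries, with summed levels of 26880 to 32044.3 CPM in shielded and 16012.7 to 19349.5 CPM in unshielded libraries without LPS, and 20054.7 to 23068.4 and 13288.6 to 14421.7 CPM after LPS. A list of 11 markers of marrow-derived brain macrophages was higher without the shield (58889.6 to 89484.5 CPM against 7008.4 to 24233.3 CPM, no LPS). Its mean log2 CPM in the same libraries ran from 6.93 to 7.17 against 5.25 to 5.98, so abundant genes weigh most in the sum. The 9 neuron markers summed to 197 to 368.2 CPM in shielded no LPS libraries and to 37.29 to 180.3 CPM after LPS, and the 8 oligodendrocyte markers to 1775.5 to 2805.4 and 424.5 to 1319.8 CPM. Without the shield the same lists gave 294.1 to 346.5 and 129.1 to 241.5 CPM, and 1769.3 to 2279.1 and 1055.2 to 1894.2 CPM. Summed CPM over all libraries ran from 208.2 to 355.4 for astrocytes, 128.7 to 359.9 for endothelium, 64.05 to 1072.8 for neutrophils, 23.95 to 381.6 for B cells and 0.7518 to 1.958 for T and NK cells. The endothelial sum was lower after LPS in both settings (131.5 to 172 against 222 to 359.9 CPM with the shield, 128.7 to 205.7 against 312.6 to 347.4 CPM without it). Its genes did not move as one. Of the 9 markers 5 fell with the shield and 6 without it, and Cdh5 rose in both. The neutrophil sum was higher after LPS in unshielded mice (288.3 to 1072.8 against 64.05 to 172.6 CPM), where unshielded LPS library 1 held the 1072.8. In shielded mice its ranges overlapped (321.2 to 542.6 against 183.4 to 410.7 CPM). The B cell sum was lower after LPS in both settings (36.98 to 46.75 against 317.9 to 381.6 CPM with the shield, 23.95 to 45.71 against 244.2 to 290.9 CPM without it). That sum rests on few genes. Of the 6 B cell markers 3 had enough counts to be tested, and Ighm and Cd79b fell in both settings. Without LPS the mean log2 CPM of the 6 ran from -0.46 to -0.06 with the shield and from -0.15 to 0.02 without it. Which cells held these transcripts was not tested. In a bulk sample fewer cells of a type and less RNA per cell cannot be told apart.

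The promoters of these genes were examined for base composition and motifs. The RefSeq table (GRCm38.p6) held 74 promoters for 52 of the 67 genes; the genes without an entry include Kdm6b, Hdac1, Hdac3 and Hdac10. The member promoters were rich in GC and CpG. Over the 250 bases before the start the median GC content was 61.8% against 52.4% for all 32851 promoters in the table, and the median number of CpG dinucleotides was 17 against 6. The sequences shown are the class IIa deacetylase genes Hdac4 and Hdac5, which moved in opposite directions after LPS, the H3 lysine 4 demethylase gene Kdm5c, the DNA dioxygenase gene Tet2 and Hdac9. Each is written 5′ to 3′ on the gene's strand and ends at the base before the start; capitals mark matches to a searched motif.
Hdac4, chr1:92180342-92180461, minus strand: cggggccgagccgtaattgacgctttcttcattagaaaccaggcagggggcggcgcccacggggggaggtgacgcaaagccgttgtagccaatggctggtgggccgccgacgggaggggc
Hdac5, chr11:102230173-102230292, minus strand: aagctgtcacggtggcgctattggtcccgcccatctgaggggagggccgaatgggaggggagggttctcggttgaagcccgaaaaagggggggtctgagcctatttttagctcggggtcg
Tet2, chr3:133544391-133544510, minus strand: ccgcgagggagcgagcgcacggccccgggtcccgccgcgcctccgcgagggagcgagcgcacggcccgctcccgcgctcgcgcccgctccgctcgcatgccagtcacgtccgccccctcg
Kdm5c, chrX:152233107-152233226, plus strand: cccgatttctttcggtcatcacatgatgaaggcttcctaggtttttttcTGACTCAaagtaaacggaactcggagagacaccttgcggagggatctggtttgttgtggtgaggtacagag
Hdac9, chr12:34528890-34529139, minus strand: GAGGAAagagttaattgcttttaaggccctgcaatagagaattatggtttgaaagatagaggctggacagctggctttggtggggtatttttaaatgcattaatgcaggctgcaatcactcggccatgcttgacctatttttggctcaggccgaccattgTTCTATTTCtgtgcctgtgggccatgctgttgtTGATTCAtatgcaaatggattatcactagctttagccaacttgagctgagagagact

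The Tet2 stretch holds 25 CpG dinucleotides in 120 bases, the Hdac4 stretch 12 and the Hdac5 stretch 8, and none of the 3 holds a searched motif. The Kdm5c stretch holds 1 AP-1 match. The Hdac9 start shown is poor in CpG, with 2 in 250 bases, and carries a PU.1 core, an interferon-stimulated element on the opposite strand and an AP-1 match. The other RefSeq start of Hdac9 has 0 CpG in 248 bases and a PU.1 core as its only match. Which start is used was not tested. Searched on both strands, AP-1 (TGANTCA) was found in 6 of the 74 member promoters (8.108%, against 6.749% of all promoters), in Hdac9, Kdm3a, Kdm4a, Kdm5c, Prdm1 and Prdm13. The PU.1 core (GAGGAA) was found in 18 (24.32% against 23.25%). NF-kB (GGGNNTTCC) was found in 1, Kdm5b (1.351% against 4.977%), and the interferon-stimulated element (GAAANNGAA) in 1, Hdac9 (1.351% against 7.129%). A match describes letters in this window and is no evidence of binding.

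Of the 67 genes, 62 had enough counts to be tested among 18875 genes. The other 5 are the H3 lysine 9 demethylase gene Kdm4d, with 47 counts over all libraries, and Prdm6, Prdm12, Prdm13 and Prdm14 with 45, 14, 10 and 54 counts. Per kilobase of exon, on the scale of CPM divided by exon length, the highest mean levels in shielded mice without LPS were those of Setd3 (27.5), an actin histidine methyltransferase, and of Hdac5 (21.2), Hdac1 (14.7), Kdm4a (14.2) and Hdac3 (13.7). Low levels were those of Dnmt3b (0.666), Tet1 (0.304) and Prdm8 (0.188). Tet2 and Tet3 stood at 2.56 and 4.39, so the 3 TET genes spanned 0.304 to 4.39 on this scale. Exon bases shared with another gene make Setd1a (52.3% of its exon length), Prdm8 (29.1%), Kdm3b (24.6%) and Hdac4 (22.4%) less certain, since the labels do not state whether the counting used strand.

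LPS changed the levels of most of these genes in shielded mice. Of the 62, 24 rose (38.7%, where 32.4% of all tested genes rose) and 18 fell (29.0%, where 35.1% of all fell); the median log2 fold change was 0.13 against -0.14 over all genes tested. In unshielded mice 12 rose (19.4%, against 24.3% of all genes) and 16 fell (25.8%, against 18.8%), with a median of -0.04 against -0.06. More than 2-fold changes among the called genes numbered 5 up and 6 down with the shield, and 4 up and 4 down without it. The share of all tested genes past 2-fold was not computed. The interquartile range of the log2 fold change was 0.89 for members against 1.67 for all tested genes with the shield. Without the shield it was 0.61 against 0.97. On the TMM scale all 4 shares of called genes given above lay within 10 percentage points of the background. Scaled by library totals, the counts became 11 up and 29 down with the shield and 6 up and 34 down without it. On that scale 21.4% of all tested genes rose and 48.4% fell with the shield, and 14.1% and 34.5% without it. The 34 of 62 genes that fell without the shield are a larger share than 34.5%, and the other counts lay nearer the background. All tested genes then had a median of -0.49 in place of -0.14 and of -0.36 in place of -0.06. The changes given here are relative to the TMM scale. Calls here and below are edgeR quasi-likelihood tests with Benjamini-Hochberg adjusted p under 0.05, and a log2 fold change of 1 is a doubling. Values after ± are standard errors (SE).

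The LPS responses had the same direction with and without the shield wherever both passed. The 12 genes that rose in unshielded mice all rose in shielded mice, where they are 50% of those that rose; 14 genes fell in both, 77.78% of the shielded and 87.5% of the unshielded list; 0 went in opposite directions and 18 passed in neither. Across the 62 genes, which are not independent replicates, the log2 fold changes had Pearson r 0.89 and Spearman rho 0.90 over groups that share no library. The sign was the same for 51 of 62, and the change was the larger in shielded mice for 45. None of these overlaps, correlations and sign counts was computed over all tested genes, so they are not shown to be particular to this set. Over all tested genes too the log2 fold changes spread more widely with the shield (interquartile range 1.67 against 0.97 without it).

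**Figure D1:**
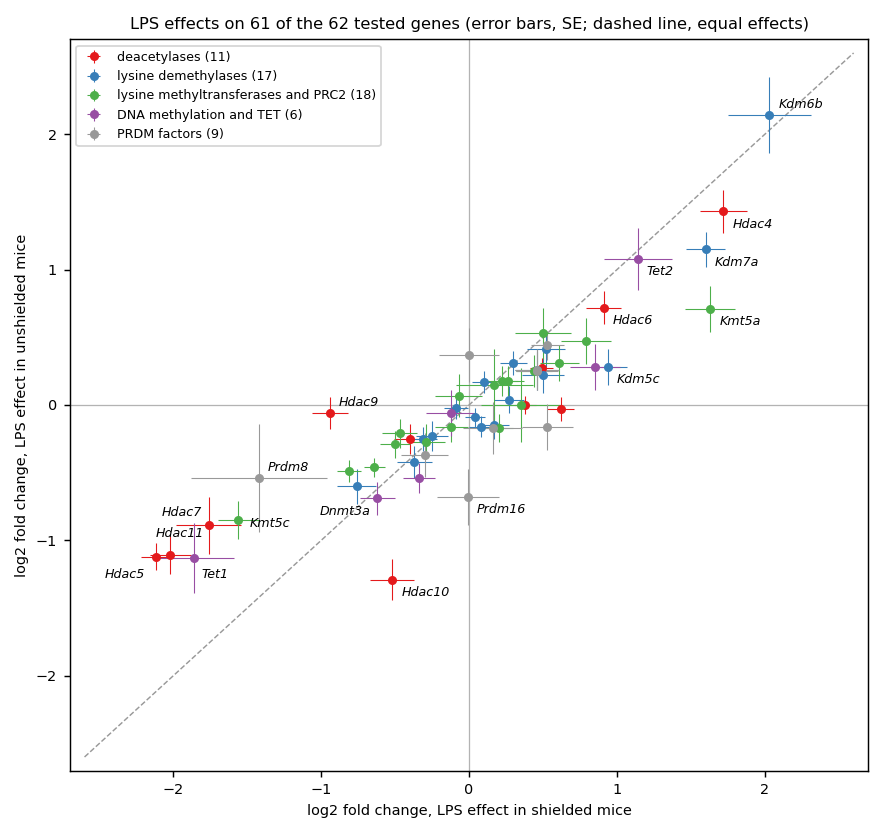
Log2 fold change after LPS in shielded mice (x axis) against unshielded mice (y axis) for 61 of the 62 tested genes, coloured by family, with standard errors as bars and a dashed line of equal effects. Kdm6b, Hdac4, Kdm7a and Tet2 lie at the upper right and Hdac5, Hdac11, Tet1 and Hdac7 at the lower left; Hdac9 at -0.94 and -0.06 and Kmt5a at 1.63 and 0.71 lie off the line.

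The histone deacetylase genes changed in both directions after LPS. Class I, the nuclear deacetylases of the Sin3, NuRD, CoREST and NCoR complexes, rose for 3 of 4 genes and fell for Hdac8 in shielded mice, while in unshielded mice Hdac1 alone passed the threshold. Hdac2 in shielded mice stood at 50.4, 49.96 and 47.1 CPM without LPS and at 87.3, 70.1 and 69.5 CPM after LPS. The shielded LPS libraries all lay above the shielded libraries without LPS. The log2 fold change was 0.62 (SE 0.09, adjusted p = 7.56e-05). In unshielded mice the values were 43.6, 43.7 and 41.3 CPM and 44.4, 41.05 and 41.01 CPM. The log2 fold change was -0.03 (SE 0.09, adjusted p = 0.838). The unshielded groups overlapped. Hdac1, its usual partner in the same complexes, rose by 0.49 ± 0.08, adjusted p = 0.000246 with the shield and by 0.27 ± 0.08, adjusted p = 0.0205 without it. Hdac3, the NCoR deacetylase, rose by 0.38 ± 0.07, adjusted p = 0.000569 with the shield and without it had 0.00 ± 0.07, adjusted p = 0.989. Hdac8, a class I enzyme that works largely outside these complexes, went from 9.12, 10.4 and 8.90 CPM to 7.20, 7.04 and 7.27 CPM in shielded mice (-0.40 ± 0.11, adjusted p = 0.00809). Blocking on replicate number ended the Hdac8 call (-0.36, adjusted p = 0.0816). Scaled by library totals, Hdac1 in unshielded mice turned to -0.03 and Hdac3 in shielded mice came to 0.03 (adjusted p = 0.771); Hdac1 and Hdac2 in shielded mice kept their direction (0.14 and 0.27).

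Class IIa deacetylases bind MEF2 factors and shuttle between nucleus and cytoplasm. After LPS 1 of the 4, Hdac4, rose in both settings, Hdac5 and Hdac7 fell in both, and Hdac9 fell in shielded mice. Hdac4 in shielded mice stood at 15.9, 15.6 and 18.2 CPM without LPS and at 47.7, 70.2 and 45.9 CPM after LPS. Without the shield the levels were 19.6, 18.9 and 20.1 CPM and 44.04, 59.99 and 54.6 CPM, respectively. Every LPS library lay above every library without LPS. Hdac4 had a log2 fold change of 1.72 with the shield (SE 0.16, adjusted p = 1.70e-06) and 1.43 without it (SE 0.16, adjusted p = 1.78e-05). Hdac5 in shielded mice stood at 175, 192 and 192 CPM without LPS and at 45.03, 37.9 and 45.3 CPM after LPS. Unshielded mice had 174, 173 and 170.1 CPM without and 84.2, 84.7 and 68.9 CPM with LPS. Hdac5 was the second most abundant member per length without LPS, and no LPS library reached the level of any library without LPS. For Hdac5 the test gave a log2 fold change of -2.12 (SE 0.10, adjusted p = 1.93e-08) in shielded and -1.12 (SE 0.10, adjusted p = 3.30e-06) in unshielded mice. Hdac7 in shielded mice stood at 14.3, 17.3 and 20.04 CPM without LPS and at 3.41, 4.75 and 7.08 CPM after LPS. The unshielded libraries held 20.4, 22.97 and 24.96 CPM without and 13.99, 11.2 and 11.5 CPM after LPS. Both settings had lower Hdac7 after LPS, with no overlap. Hdac7 thus had log2 fold changes of -1.76 with (SE 0.22, adjusted p = 2.48e-05) and -0.89 without the shield (SE 0.21, adjusted p = 0.00465). Hdac9 in shielded mice stood at 37.2, 32.3 and 32.04 CPM without LPS and at 19.3, 17.6 and 15.98 CPM after LPS. For unshielded mice the corresponding libraries gave 43.5, 44.5 and 50.7 CPM and 36.6, 50.5 and 46.01 CPM. Hdac9 was lower after LPS in shielded mice with no overlap, whereas the unshielded groups overlapped. Hdac9 had a log2 fold change of -0.94 with the shield (SE 0.12, adjusted p = 3.02e-05) and -0.06 without it (SE 0.12, adjusted p = 0.703).

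The class IIb enzymes are Hdac6, a cytoplasmic deacetylase of tubulin, and Hdac10, which deacetylates polyamines; Hdac11 is the only class IV member. Hdac6 in shielded mice stood at 26.5, 27.1 and 28.1 CPM without LPS and at 56.01, 56.4 and 41.2 CPM after LPS. In unshielded mice the values were 28.5, 32.3 and 32.4 CPM and 46.4, 56.8 and 50.7 CPM. Hdac6 rose without overlap in both. For Hdac6 the test gave a log2 fold change of 0.91 (SE 0.12, adjusted p = 3.11e-05) in shielded and 0.72 (SE 0.12, adjusted p = 0.000377) in unshielded mice. Hdac10 in shielded mice stood at 24.7, 27.4 and 29.5 CPM without LPS and at 20.2, 18.4 and 18.3 CPM after LPS. Without the shield the levels were 17.6, 23.4 and 20.7 CPM and 10.2, 6.68 and 8.37 CPM, respectively. Hdac10 fell in both, and the unshielded LPS libraries were the lowest of all 12. Hdac10 thus had log2 fold changes of -0.52 with (SE 0.15, adjusted p = 0.00741) and -1.29 without the shield (SE 0.15, adjusted p = 2.33e-05). Hdac11 in shielded mice stood at 28.04, 29.4 and 32.02 CPM without LPS and at 5.61, 7.64 and 8.80 CPM after LPS. Unshielded mice had 22.3, 24.4 and 24.3 CPM without and 11.99, 9.84 and 11.1 CPM with LPS. The fall of Hdac11 was without overlap in both. Hdac11 had a log2 fold change of -2.02 with the shield (SE 0.14, adjusted p = 1.94e-07) and -1.11 without it (SE 0.14, adjusted p = 4.49e-05). In the 3 shielded LPS libraries the neuron markers had a mean log2 CPM from 1.75 in library 1 to 3.97 in library 3, and Hdac11, Hdac7 and Tet1 were lowest in library 1 and highest in library 3. With the neuron and oligodendrocyte marker level as a covariate the shielded log2 fold changes were -1.53 for Hdac11, -1.02 for Hdac7 and -1.04 for Tet1 (adjusted p = 1.95e-06, 0.00141 and 0.00699), and -2.16 for Hdac5.

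**Figure D2:**
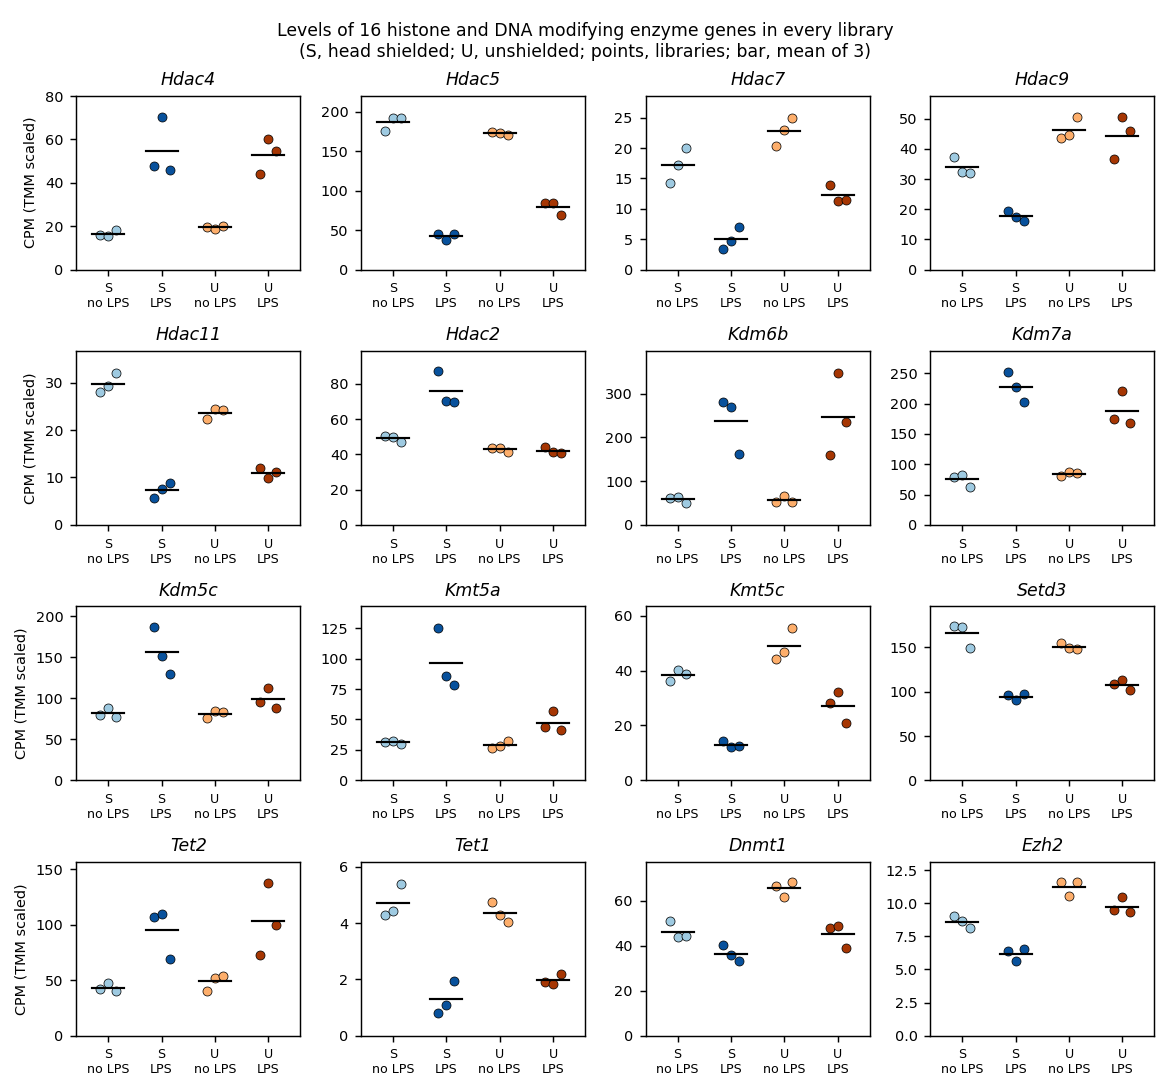
Levels in TMM-scaled CPM (y axis, from 0) of 16 genes in each of the 12 libraries, by group on the x axis (S, shielded; U, unshielded); points are libraries and bars the mean of 3. Hdac4, Kdm6b, Kdm7a and Tet2 are higher and Hdac5, Hdac7, Hdac11, Kmt5c and Tet1 lower after LPS in both settings, and Hdac9 and Hdac2 change with LPS in the shielded groups.

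Among the demethylases the H3 lysine 27 enzymes parted. Kdm6b had the largest rise of all members in both settings, and Kdm6a, an X-linked enzyme for the same mark, did not pass. Kdm6b in shielded mice stood at 60.7, 64.3 and 49.4 CPM without LPS and at 281, 270 and 161 CPM after LPS. The unshielded libraries held 52.1, 64.9 and 51.6 CPM without and 161, 346 and 235 CPM after LPS. LPS and no LPS libraries did not overlap in either setting, and the LPS libraries varied among themselves, with shielded library 3 and unshielded library 1 the lowest of each group. For Kdm6b the test gave a log2 fold change of 2.03 (SE 0.28, adjusted p = 7.23e-05) in shielded and 2.14 (SE 0.28, adjusted p = 0.000104) in unshielded mice. The antisense transcript Kdm6bos, at 24 to 114 counts per library, shares 4.11% of the Kdm6b exon bases. Kdm6a had log2 fold changes of -0.09 ± 0.08, adjusted p = 0.36 with the shield and -0.02 ± 0.08, adjusted p = 0.837 without it. With the neuron and oligodendrocyte marker covariate the Kdm6b value in shielded mice was 1.13 (adjusted p = 0.0104).

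Of the H3 lysine 9 and 36 demethylases, 5 of 9 rose and Kdm2b fell in shielded mice; 2 of 9 rose and Kdm2b fell in unshielded mice. The highest was Kdm7a, which acts on dimethylated H3 lysines 9 and 27. Kdm7a in shielded mice stood at 78.7, 83.05 and 63.3 CPM without LPS and at 251, 228 and 203 CPM after LPS. For unshielded mice the corresponding libraries gave 80.1, 87.8 and 85.2 CPM and 174, 222 and 167 CPM. All LPS libraries were above all others. Kdm7a thus had log2 fold changes of 1.60 with (SE 0.13, adjusted p = 6.09e-07) and 1.15 without the shield (SE 0.13, adjusted p = 2.11e-05). Kdm4b (0.52 ± 0.13, adjusted p = 0.00382) rose in shielded and in unshielded mice (0.41 ± 0.13, adjusted p = 0.0204). Kdm2a (0.50 ± 0.14, adjusted p = 0.00606), Kdm8 (0.46 ± 0.15, adjusted p = 0.0176) and Kdm4a (0.27 ± 0.10, adjusted p = 0.0305) rose in shielded mice, and without the shield had log2 fold changes of 0.22, 0.26 and 0.04 that did not pass. Library-total scaling turned the direction of Kdm4a in shielded mice (-0.09). Blocking on replicate number ended the Kdm8 call (0.49, adjusted p = 0.0781). Kdm2b, which binds unmethylated CpG and brings a Polycomb complex there, fell in shielded (-0.76 ± 0.13, adjusted p = 0.000302) and in unshielded mice (-0.60 ± 0.13, adjusted p = 0.00301). Kdm3a, Kdm3b and Kdm4c did not pass in either, with log2 fold changes from -0.25 to 0.17.

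Of 6 H3 lysine 4 demethylases, Kdm5c and Kdm1a rose and Kdm5b and Kdm1b fell in shielded mice. Kdm5c in shielded mice stood at 79.3, 88.3 and 77.3 CPM without LPS and at 187, 152 and 129 CPM after LPS. In unshielded mice the values were 75.6, 84.7 and 83.7 CPM and 95.7, 113 and 88.3 CPM. The shielded groups did not overlap. In unshielded mice each of the 3 LPS libraries lay above each library without LPS, and the test did not pass. Kdm5c had a log2 fold change of 0.94 with the shield (SE 0.13, adjusted p = 5.23e-05) and 0.28 without it (SE 0.13, adjusted p = 0.0984). Its Y-linked paralog Kdm5d stood at 27.2, 27.4 and 26.7 CPM without LPS and 28.9, 30.4 and 26.5 CPM after it in shielded mice (0.08 ± 0.08, adjusted p = 0.392). Kdm1a, the amine oxidase of the CoREST complex, rose by 0.30 ± 0.09, adjusted p = 0.0114 and 0.31 ± 0.09, adjusted p = 0.0172, a direction that library-total scaling turned in shielded mice (-0.05); in unshielded mice that scaling gave 0.00. Kdm5b fell in both settings (-0.31 ± 0.09, adjusted p = 0.00788; -0.25 ± 0.09, adjusted p = 0.0313), as did Kdm1b (-0.37 ± 0.12, adjusted p = 0.0176; -0.42 ± 0.12, adjusted p = 0.016), and Kdm5a did not pass (0.10 and 0.17). With the marker covariate Kdm5c in shielded mice was at 0.45 (adjusted p = 0.00674) and the Kdm1a call ended (0.01, adjusted p = 0.957).

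Among the H3 lysine 4 methyltransferases, in shielded mice 3 of 8 rose (Setd1a, Setd7 and Kmt2b) and Kmt2c fell; in unshielded mice Kmt2b and Setd1a rose and Kmt2c fell. Setd1a rose by 0.79 ± 0.17, adjusted p = 0.00168 and 0.47 ± 0.17, adjusted p = 0.0435, and Kmt2b by 0.50 ± 0.19, adjusted p = 0.0306 and 0.53 ± 0.19, adjusted p = 0.0374. Setd7, which monomethylates H3 lysine 4 and several other proteins, rose by 0.44 ± 0.12, adjusted p = 0.00772 with the shield and had 0.25 ± 0.12, adjusted p = 0.12 without it. Kmt2c, a monomethyltransferase of enhancers, fell in both (-0.50 ± 0.10, adjusted p = 0.00108; -0.29 ± 0.10, adjusted p = 0.0365). The related Kmt2a (-0.29 ± 0.13, adjusted p = 0.0624; -0.27 ± 0.13, adjusted p = 0.103), Kmt2d (0.35 ± 0.27, adjusted p = 0.26; 0.00 ± 0.27, adjusted p = 0.994), Kmt2e (-0.12 ± 0.11, adjusted p = 0.342; -0.16 ± 0.11, adjusted p = 0.247) and Setd1b (0.17 ± 0.26, adjusted p = 0.563; 0.15 ± 0.26, adjusted p = 0.654) did not pass. Kmt2d is an example of wide spread: its shielded LPS libraries stood at 177, 124 and 88.7 CPM.

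Enzymes of H4 lysine 20 moved apart. Kmt5a, which places the first methyl group, rose, and Kmt5c, which adds further ones, fell. Kmt5a in shielded mice stood at 31.5, 32.1 and 29.7 CPM without LPS and at 125, 85.5 and 78.6 CPM after LPS. Without the shield the levels were 26.9, 27.9 and 31.96 CPM and 43.6, 57.01 and 41.1 CPM, respectively. The groups did not overlap in either setting. For Kmt5a the test gave a log2 fold change of 1.63 (SE 0.17, adjusted p = 4.83e-06) in shielded and 0.71 (SE 0.17, adjusted p = 0.00473) in unshielded mice. Kmt5c in shielded mice stood at 36.1, 40.3 and 38.8 CPM without LPS and at 14.2, 12.2 and 12.7 CPM after LPS. Unshielded mice had 44.4, 46.8 and 55.5 CPM without and 28.1, 32.2 and 21.02 CPM with LPS. The fall of Kmt5c was also without overlap. Kmt5c thus had log2 fold changes of -1.56 with (SE 0.14, adjusted p = 1.47e-06) and -0.85 without the shield (SE 0.14, adjusted p = 0.000335). Kmt5b, the paralog of Kmt5c, did not pass (0.20 ± 0.10, adjusted p = 0.0897; -0.17 ± 0.10, adjusted p = 0.182). Setd3, the most abundant member per length, fell. Setd3 in shielded mice stood at 174, 173 and 149.9 CPM without LPS and at 96.2, 90.4 and 97.04 CPM after LPS. The unshielded libraries held 155, 149.9 and 148 CPM without and 108, 113 and 102 CPM after LPS. No LPS library of Setd3 reached the level of any library without LPS. Setd3 had a log2 fold change of -0.81 with the shield (SE 0.08, adjusted p = 3.25e-06) and -0.49 without it (SE 0.08, adjusted p = 0.00043). Setd6 rose by 0.61 ± 0.13, adjusted p = 0.00153 with the shield, and Setd2 (whose enzyme trimethylates H3 lysine 36), Setd4 and Setd5 did not pass in either. With the marker covariate the shielded change of Kmt5a was 1.02.

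The PRC2 catalytic subunits both fell in shielded mice. Ezh1 in shielded mice stood at 68.2, 70.8 and 66.2 CPM without LPS and at 45.9, 44.4 and 41.8 CPM after LPS. For unshielded mice the corresponding libraries gave 74.6, 74.4 and 72.4 CPM and 55.8, 54.5 and 50.9 CPM. Ezh1 fell without overlap in both. For Ezh1 the test gave a log2 fold change of -0.64 (SE 0.07, adjusted p = 6.38e-06) in shielded and -0.46 (SE 0.07, adjusted p = 0.000193) in unshielded mice. Ezh2 in shielded mice stood at 9.05, 8.63 and 8.10 CPM without LPS and at 6.39, 5.62 and 6.56 CPM after LPS. In unshielded mice the values were 11.6, 10.5 and 11.6 CPM and 9.46, 10.5 and 9.32 CPM. Ezh2, the subunit of dividing cells, passed with the shield, where the groups did not overlap; the unshielded ranges nearly met. Ezh2 thus had log2 fold changes of -0.47 with (SE 0.12, adjusted p = 0.00357) and -0.21 without the shield (SE 0.11, adjusted p = 0.155). Blocking on replicate number ended its shielded call (-0.44, adjusted p = 0.0568). Of 9 tested partners in PRC2, 6 rose and Phf1 fell in shielded mice and 5 rose and Phf1 fell in unshielded mice. Eed, which reads the trimethylated mark, rose by 1.35 ± 0.10, adjusted p = 2.52e-07 and 0.56 ± 0.10, adjusted p = 0.000601; Suz12, the scaffold, by 0.88 ± 0.11, adjusted p = 2.15e-05 with the shield. The 14 proliferation genes had a mean log2 CPM from 2.08 to 2.77 in all libraries, and 2 rose and 1 fell with LPS in shielded mice and 3 rose in unshielded mice.

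DNA methyltransferase and TET genes both split within the family. Dnmt1, the maintenance enzyme, and Dnmt3a, a de novo enzyme, fell in both settings, and Dnmt3b rose in shielded mice. Dnmt1 in shielded mice stood at 50.99, 43.8 and 44.2 CPM without LPS and at 40.5, 35.9 and 33.1 CPM after LPS. Without the shield the levels were 66.5, 61.6 and 68.6 CPM and 47.96, 48.8 and 38.9 CPM, respectively. The groups did not overlap in either setting. Dnmt1 had a log2 fold change of -0.34 with the shield (SE 0.11, adjusted p = 0.0139) and -0.54 without it (SE 0.11, adjusted p = 0.00148). Dnmt3a in shielded mice stood at 104, 116 and 105 CPM without LPS and at 84.2, 58.4 and 68.9 CPM after LPS. Unshielded mice had 92.01, 102 and 98.8 CPM without and 59.6, 66.3 and 55.5 CPM with LPS. Dnmt3a fell without overlap. For Dnmt3a the test gave a log2 fold change of -0.62 (SE 0.12, adjusted p = 0.000649) in shielded and -0.69 (SE 0.12, adjusted p = 0.000539) in unshielded mice. Dnmt3b, low throughout, rose from 3.86, 3.23 and 3.12 to 6.45, 6.73 and 5.32 CPM in shielded mice (0.85 ± 0.17, adjusted p = 0.000952) and had 0.28 ± 0.17, adjusted p = 0.205 in unshielded mice. Tet2 in shielded mice stood at 41.96, 47.7 and 40.04 CPM without LPS and at 107, 109.5 and 69.3 CPM after LPS. The unshielded libraries held 40.8, 52.2 and 54.04 CPM without and 73.05, 138 and 100.2 CPM after LPS. Tet2, the main TET enzyme of myeloid cells, was higher in every LPS library than in any library without LPS. Tet2 thus had log2 fold changes of 1.14 with (SE 0.23, adjusted p = 0.00119) and 1.08 without the shield (SE 0.23, adjusted p = 0.00278). Tet1 in shielded mice stood at 4.29, 4.43 and 5.39 CPM without LPS and at 0.814, 1.11 and 1.95 CPM after LPS. For unshielded mice the corresponding libraries gave 4.74, 4.29 and 4.04 CPM and 1.93, 1.83 and 2.20 CPM. Tet1 was the opposite case, at low levels. Tet1 had a log2 fold change of -1.86 with the shield (SE 0.27, adjusted p = 7.25e-05) and -1.13 without it (SE 0.26, adjusted p = 0.0035). Tet3 did not pass (-0.12 ± 0.17, adjusted p = 0.519; -0.06 ± 0.17, adjusted p = 0.796). With the marker covariate the Tet2 call in shielded mice ended (0.46, adjusted p = 0.253), and in unshielded mice it held (0.79). The markers of the covariate were themselves lower after LPS, so the covariate and LPS cannot be fully told apart.

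Of the 10 tested PRDM factors, which share a PR domain and zinc fingers and in part lack enzyme activity, 4 rose and Prdm8 fell in shielded mice. In unshielded mice Prdm4 alone rose, and Prdm16 was among those that fell. Prdm4 rose in both (0.53 ± 0.11, adjusted p = 0.000983; 0.44 ± 0.11, adjusted p = 0.00503). Prdm2 (0.46 ± 0.14, adjusted p = 0.0138), Prdm15 (0.53 ± 0.17, adjusted p = 0.0151) and Prdm11 (0.46 ± 0.15, adjusted p = 0.0185) rose with the shield. Prdm8 (-1.42 ± 0.46, adjusted p = 0.0165) was low, at 0.181 to 1.49 CPM in all libraries, and its shielded groups overlapped. In unshielded mice Prdm16 (-0.68 ± 0.21, adjusted p = 0.0192) fell without overlap. Prdm1, the repressor Blimp-1, showed no change past the threshold with LPS (0.00 ± 0.20, adjusted p = 0.988; 0.37 ± 0.20, adjusted p = 0.149). Prdm1 in shielded mice stood at 25.8, 28.1 and 21.8 CPM without LPS and at 33.5, 19.8 and 22.03 CPM after LPS. In unshielded mice the values were 35.1, 35.7 and 35.2 CPM and 36.03, 56.6 and 43.9 CPM. Shielded values overlapped, and the unshielded LPS libraries reached the highest levels.

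**Figure D3:**
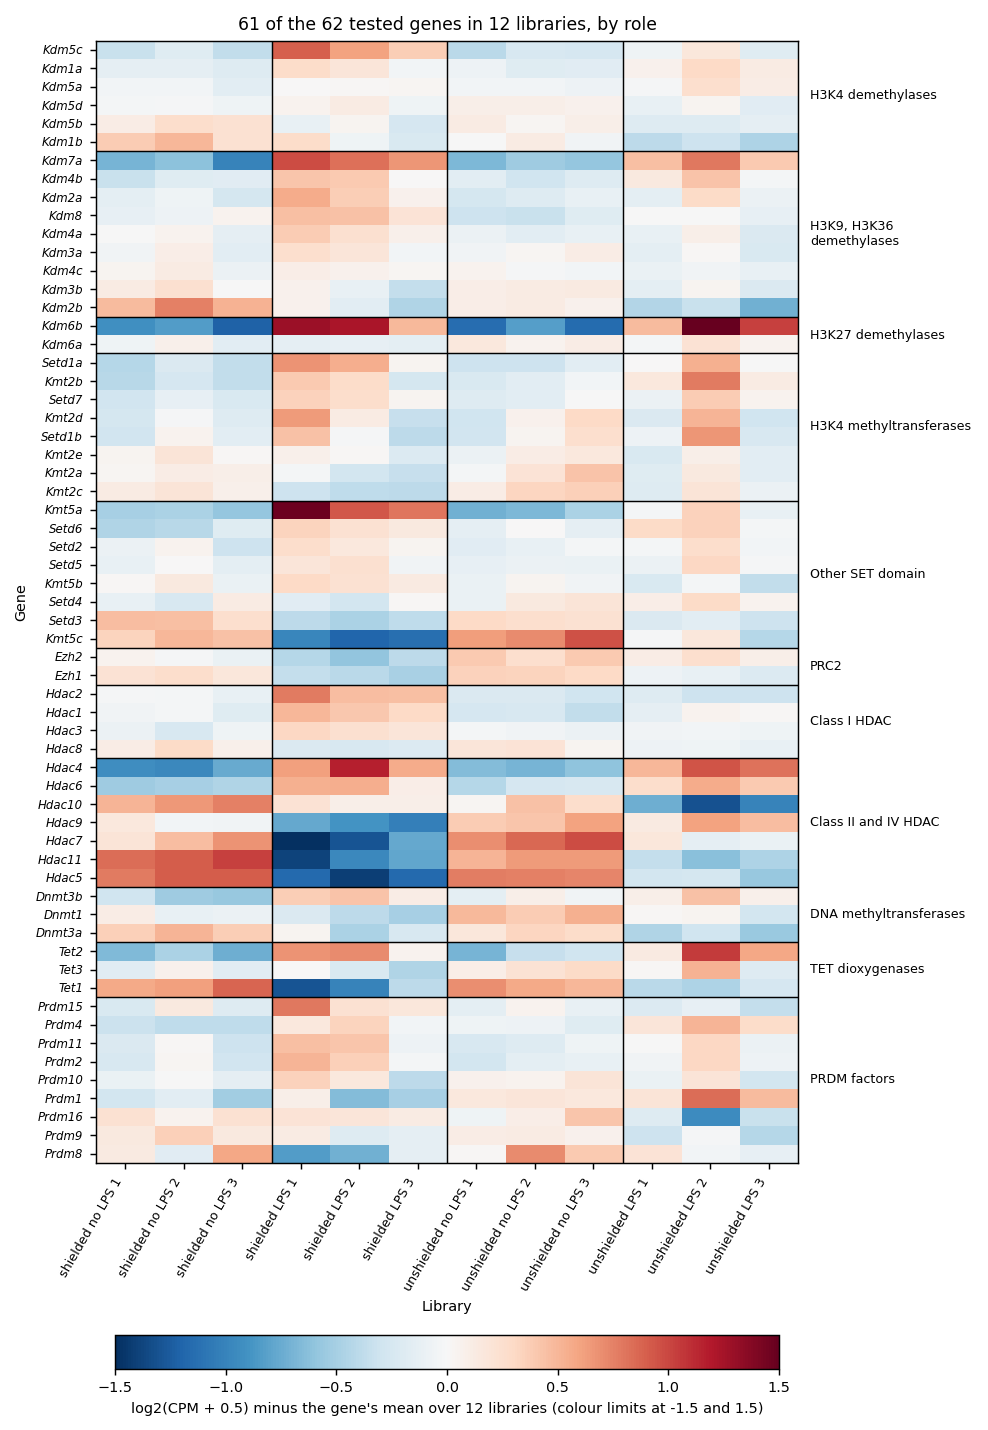
Shown are 61 of the 62 tested genes (rows, grouped by role) in the 12 libraries (columns), as log2(CPM + 0.5) minus the gene's mean over 12 libraries, with colour limits at -1.5 and 1.5. Within a role, genes with red and with blue LPS columns stand side by side, as for Kmt5a and Kmt5c, Tet2 and Tet1, and Hdac4 and Hdac5.

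Among other chromatin genes, histone acetyltransferases rose for 6 of 10 and fell for 2 in shielded mice and rose for 5 and fell for 1 in unshielded mice. Hat1 had 1.55 ± 0.14, adjusted p = 9.22e-07 and 0.94 ± 0.13, adjusted p = 0.000114, and Kat2a 1.15 ± 0.13, adjusted p = 9.66e-06 and 0.47 ± 0.13, adjusted p = 0.0119. Arginine methyltransferases rose for 7 of 9 and 6 of 9 and fell for 1 in each, with Prmt3 at 1.74 ± 0.10, adjusted p = 4.35e-08 and 0.75 ± 0.10, adjusted p = 5.66e-05, and Prmt1 at 1.55 ± 0.10, adjusted p = 1.04e-07 and 0.89 ± 0.10, adjusted p = 1.92e-05. Partners of the H3 lysine 4 methyltransferases (COMPASS) rose for 9 of 10 and fell for 1 with the shield and rose for 2 and fell for 1 without; Wdr5 had 1.14 ± 0.09, adjusted p = 2.67e-07 and 0.52 ± 0.08, adjusted p = 0.000364. Of 21 corepressor subunits that carry deacetylases, 14 rose and 3 fell, and 8 rose and 2 fell; Mbd2 had 1.22 ± 0.11, adjusted p = 1.56e-06 and 1.35 ± 0.11, adjusted p = 2.11e-06. Of 11 DNA methylation partners, 4 rose and 3 fell, and 4 rose and 2 fell, with Tdg, the glycosylase that removes oxidised cytosine, at 1.51 ± 0.11, adjusted p = 3.03e-07 and 0.69 ± 0.11, adjusted p = 0.000399. Of 17 other methyltransferases 10 rose and 4 fell, and 5 rose and 2 fell, with Smyd5 at 1.74 ± 0.13, adjusted p = 2.71e-07 and 0.78 ± 0.13, adjusted p = 0.000354. Of 9 other JmjC genes 4 rose and 1 fell, and 3 rose and 0 fell, with Jmjd6 at 1.09 ± 0.12, adjusted p = 8.60e-06 and 0.46 ± 0.12, adjusted p = 0.00952. These lists were chosen with results known, and their shares are to be read against 32.4% and 35.1% of all genes with the shield and 24.3% and 18.8% without it.

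When each library was left out in turn, 17 of the 24 risen and 15 of the 18 fallen genes kept their call in shielded mice, and 7 of 12 and 11 of 16 in unshielded mice. Leaving out the 2 libraries with conflicting labels left shielded no LPS library 1 alone in its group. In that fit shielded calls were lost for Dnmt3b (0.68), Setd7 (0.52), Kdm1a (0.28), Kdm2a (0.49), Kdm4a (0.25), Kdm8 (0.55), Kmt2b (0.58), Prdm2 (0.54) and Prdm11 (0.52) among those that rose. They were also lost for Hdac8 (-0.35), Hdac10 (-0.38), Kdm1b (-0.38), Kdm5b (-0.21) and Prdm8 (-1.28) among those that fell. Fewer of all tested genes passed in that fit too. The same fit gave 1.97 for Kdm6b, 1.78 for Hdac4, 1.53 for Kdm7a, 1.61 for Kmt5a, 1.18 for Tet2, -2.03 for Hdac5, -1.93 for Hdac11, -1.73 for Tet1, -1.49 for Hdac7, -1.47 for Kmt5c and -1.08 for Hdac9, all past the threshold, and ended 4 of the 28 unshielded calls (Kmt2b, Kmt2c, Kdm5b and Setd1a, with adjusted p of 0.0627, 0.0607, 0.0518 and 0.0685). Without unshielded no LPS library 3 the count of risen genes in unshielded mice went from 12 to 7. The calls that ended in some left-out fit include, in shielded mice, Dnmt1 (without shielded no LPS library 1) and Kdm1a (without shielded LPS library 1, 0.23) and, in unshielded mice, Hdac1 (without unshielded no LPS library 3, 0.23), Kdm1a, Kdm1b, Kdm4b, Kmt2b, Kmt2c and Setd1a. With the neuron and oligodendrocyte marker covariate 18 of the 42 shielded calls ended, and Kmt2b, Kdm4a, Prdm2, Prdm11 and Prdm15 changed sign. Over all tested genes that fit called 20.2% higher and 14.4% lower, against 32.4% and 35.1% in the main fit. In that comparison 8 of 9 neuron and 8 of 8 oligodendrocyte markers fell in the main fit.

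Without LPS, few of these genes differed between unshielded and shielded mice. Of the 62, 3 were higher without the shield (4.84%, against 3.98% of all tested genes) and 1 was lower (1.61%, against 6.85%). The higher genes were Dnmt1, Hdac9 and Ezh2, and the lower one was Kdm2b. Dnmt1 stood at 50.99, 43.8 and 44.2 CPM in shielded and 66.5, 61.6 and 68.6 CPM in unshielded libraries without LPS (0.50 ± 0.11, adjusted p = 0.00885). The groups did not overlap. Hdac9 stood at 37.2, 32.3 and 32.04 and 43.5, 44.5 and 50.7 CPM (0.45 ± 0.12, adjusted p = 0.0311), Ezh2 at 9.05, 8.63 and 8.10 and 11.6, 10.5 and 11.6 CPM (0.39 ± 0.12, adjusted p = 0.0468), and Kdm2b at 65.7, 80.4 and 68.2 and 50.7, 51.7 and 49.5 CPM (-0.50 ± 0.13, adjusted p = 0.0293). These ranges too did not meet. The differences are small, each under 1.5-fold, and Kdm6b (-0.05 ± 0.27, adjusted p = 0.958), Tet2 (0.18 ± 0.23, adjusted p = 0.756) and Kdm7a (0.17 ± 0.13, adjusted p = 0.542) did not pass. Each of the 4 calls was lost in at least 1 left-out fit: all 4 without shielded no LPS library 2, Hdac9, Ezh2 and Kdm2b also without shielded no LPS library 3 or any 1 unshielded no LPS library, and Ezh2 also without shielded no LPS library 1; the log2 fold changes over these fits ran from 0.38 to 0.52 for Hdac9, 0.35 to 0.44 for Ezh2, 0.46 to 0.57 for Dnmt1 and -0.56 to -0.40 for Kdm2b. Without both libraries with conflicting labels, 0 of the 4 passed (Dnmt1 0.36, Hdac9 0.31, Ezh2 0.32 and Kdm2b -0.38). Of the marrow-derived macrophage markers 9 of 11 were higher and of the microglia markers 10 of 12 lower without the shield, and of 14 proliferation genes Mcm6 and Mcm2 were higher; their part in these differences was not tested.

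After LPS, 11 of the 62 genes were higher in unshielded than in shielded mice (17.7%, against 19.1% of all genes) and 12 were lower (19.4%, against 25.6%), with a median log2 fold change of -0.06 against 0.07. In the same comparison 9 of 11 marrow-derived macrophage markers were higher (summed 82816.3 to 108756.7 CPM without the shield against 3305.2 to 5266.0 CPM with it). Abundant genes weigh most in that sum. The list's mean log2 CPM ran from 7.75 to 8.06 against 5.26 to 6.08. With LPS in shielded mice 5 of these markers rose and 6 fell. Of the microglia markers 10 of 12 were lower (13288.6 to 14421.7 against 20054.7 to 23068.4 CPM). No marker of either list was at 0, and their part in the differences was not tested. The deacetylases differed in both directions. All 3 called class I genes, Hdac1, Hdac2 and Hdac3, were lower, whereas Hdac5, Hdac7, Hdac9 and Hdac11 were higher and Hdac10 was lower. Hdac9 showed the largest difference: after LPS it stood at 19.3, 17.6 and 15.98 CPM with the shield and at 36.6, 50.5 and 46.01 CPM without it (1.33 ± 0.12, adjusted p = 9.40e-06). The ranges did not meet. Hdac7 stood at 3.41, 4.75 and 7.08 and 13.99, 11.2 and 11.5 CPM (1.27 ± 0.22, adjusted p = 0.000625), and Hdac5 at 45.03, 37.9 and 45.3 and 84.2, 84.7 and 68.9 CPM (0.89 ± 0.10, adjusted p = 2.78e-05). Neither gene's ranges met. Hdac10 was at 20.2, 18.4 and 18.3 and 10.2, 6.68 and 8.37 CPM (-1.17 ± 0.15, adjusted p = 5.73e-05), and Hdac2 at 87.3, 70.1 and 69.5 and 44.4, 41.05 and 41.01 CPM (-0.84 ± 0.09, adjusted p = 2.19e-05). Hdac11 (0.58 ± 0.14, adjusted p = 0.00565), Hdac1 (-0.42 ± 0.08, adjusted p = 0.00138) and Hdac3 (-0.31 ± 0.07, adjusted p = 0.00416) differed by less.

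The other called genes after LPS included both PRC2 catalytic subunits and Prdm1. Kmt5a was lower without the shield (-1.03 ± 0.17, adjusted p = 0.000379) and Kmt5c higher (1.05 ± 0.14, adjusted p = 9.28e-05); the values are those given for LPS above. Kdm5c was lower (-0.66 ± 0.13, adjusted p = 0.00144), as were Kmt5b (-0.42 ± 0.10, adjusted p = 0.00388) and Prdm15 (-0.67 ± 0.17, adjusted p = 0.00618). Prdm1 stood at 33.5, 19.8 and 22.03 CPM with the shield and 36.03, 56.6 and 43.9 CPM without it (0.86 ± 0.20, adjusted p = 0.00432), with no overlap. Ezh2 (0.65 ± 0.12, adjusted p = 0.000669), Ezh1 (0.29 ± 0.07, adjusted p = 0.00524) and Dnmt1 (0.31 ± 0.11, adjusted p = 0.0356) were higher without the shield, with overlapping ranges for Dnmt1, and Prdm16 lower (-0.69 ± 0.21, adjusted p = 0.0186). Of the 14 proliferation genes 5 were also higher (Mki67, Mcm2, Aurkb, Mcm6 and Birc5) and Pcna lower, and their part in these differences was not tested. Kdm6a (0.22 ± 0.08, adjusted p = 0.0472) and Kmt2c (0.34 ± 0.10, adjusted p = 0.0169) were also higher, and Kdm1b (-0.40 ± 0.12, adjusted p = 0.0191), Kdm4a (-0.32 ± 0.10, adjusted p = 0.0212) and Kdm8 (-0.46 ± 0.15, adjusted p = 0.027) lower. Kdm6b (0.06 ± 0.27, adjusted p = 0.868), Tet2 (0.12 ± 0.23, adjusted p = 0.668), Tet1 (0.62 ± 0.27, adjusted p = 0.08), Kdm7a (-0.28 ± 0.13, adjusted p = 0.0973) and Hdac4 (-0.04 ± 0.15, adjusted p = 0.823) did not pass. Among partners, 8 of 9 arginine methyltransferases were lower (Prmt3, -0.91 ± 0.10, adjusted p = 1.94e-05; Prmt7, -1.05 ± 0.10, adjusted p = 1.06e-05) and Prmt8 higher, 5 of 9 PRC2 partners were lower (Eed, -0.84 ± 0.10, adjusted p = 3.63e-05) and 5 of 10 COMPASS partners were lower (Wdr5, -0.61 ± 0.08, adjusted p = 0.000112); over all tested genes 25.6% were lower and 19.1% higher, and these lists were chosen with results known.

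Leaving out each library in turn kept 8 of 11 higher and 8 of 12 lower calls. Dnmt1, Kdm6a, Kmt2c, Kdm1b, Kdm4a, Kdm8 and Prdm16 lost theirs in some fit; without shielded LPS library 3, 19 genes were lower instead of 12. With the neuron and oligodendrocyte marker covariate 5 of the 23 calls ended: Hdac11 (0.28, adjusted p = 0.0751), Prdm15 (-0.30, adjusted p = 0.111), Kdm8 (-0.37, adjusted p = 0.11), Kdm4a (-0.11, adjusted p = 0.33) and Kdm1b (-0.11, adjusted p = 0.425). Over all tested genes that fit called 12.6% higher and 18.4% lower, against 19.1% and 25.6% in the main fit. Without the 2 libraries with conflicting labels 1 call ended, that of Kdm6a (0.22, adjusted p = 0.0581).

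**Figure D4:**
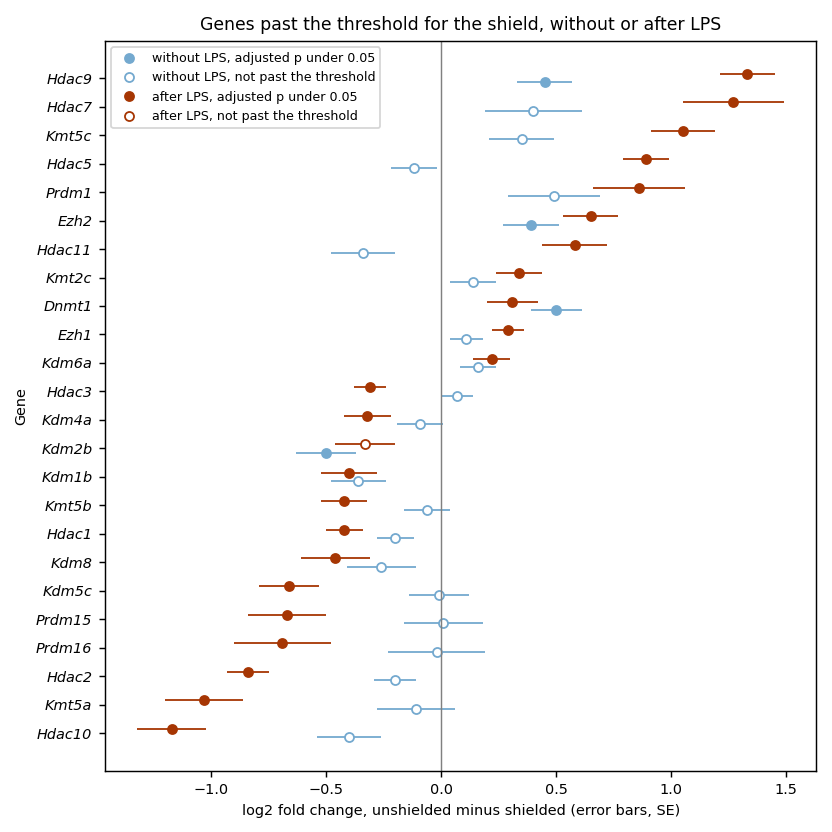
Log2 fold change of unshielded over shielded mice (x axis) for the 24 genes past the threshold without LPS or after LPS, with standard errors as bars; filled points passed and open points did not. Class IIa and IV deacetylase genes Hdac9, Hdac7, Hdac5 and Hdac11 lie at the right after LPS, and Hdac10, Kmt5a and Hdac2 at the left.

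The difference between the LPS effects was tested as an interaction. Of the 62 genes, 4 had a higher LPS effect in unshielded mice (6.45%, against 4.06% of all tested genes) and 5 a lower one (8.06%, against 9.25%), with a median of -0.08 against 0.08. The 4 were Hdac5 (1.01 ± 0.14, adjusted p = 0.00195), Hdac11 (0.91 ± 0.20, adjusted p = 0.0109), Hdac9 (0.88 ± 0.17, adjusted p = 0.007) and Kmt5c (0.70 ± 0.20, adjusted p = 0.0342), each with the more negative LPS log2 fold change in shielded mice. The 5 were Kmt5a (-0.92 ± 0.24, adjusted p = 0.0237), Hdac10 (-0.77 ± 0.21, adjusted p = 0.0288), Hdac2 (-0.65 ± 0.13, adjusted p = 0.00758), Kdm5c (-0.65 ± 0.19, adjusted p = 0.0357) and Hdac3 (-0.38 ± 0.10, adjusted p = 0.0278); of these, Hdac10 fell more in unshielded mice and the other genes had the higher LPS log2 fold change in shielded mice. Several strong LPS responses did not pass here: Hdac7 had an interaction of 0.87 ± 0.30, adjusted p = 0.0813. Kdm6b had an interaction of 0.11 ± 0.38, adjusted p = 0.864, Hdac4 -0.28 ± 0.22, adjusted p = 0.404, Kdm7a -0.45 ± 0.18, adjusted p = 0.13, Tet2 -0.06 ± 0.32, adjusted p = 0.918 and Tet1 0.73 ± 0.37, adjusted p = 0.215. Kept in every left-out fit were Hdac5, Hdac9, Hdac11 and Hdac2; Kmt5a, Kmt5c, Hdac3, Hdac10 and Kdm5c lost theirs in some, with log2 differences over the 12 fits of -1.08 to -0.69, 0.56 to 0.81, -0.44 to -0.33, -0.93 to -0.63 and -0.77 to -0.50. Without the 2 libraries with conflicting labels only Hdac5 passed (0.92, adjusted p = 0.0487), and Hdac9 had 1.02 (adjusted p = 0.0537), Hdac11 0.83, Kmt5c 0.62, Kmt5a -0.90, Hdac10 -0.91, Kdm5c -0.70, Hdac2 -0.61 and Hdac3 -0.34. The marker covariate ended the calls of Kdm5c (-0.36, adjusted p = 0.0598) and Hdac3 (-0.35, adjusted p = 0.0543) and brought Kmt5a to -0.56 (adjusted p = 0.0269). Library totals ended those of Hdac3 (-0.32, adjusted p = 0.0626) and Hdac10 (-0.70, adjusted p = 0.0962), and blocking on replicate number that of Kmt5c (0.69, adjusted p = 0.0504).

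In all, 15 of the 62 genes passed in none of the 5 comparisons: Kdm3a, Kdm3b, Kdm4c, Kdm5a, Kdm5d, Kmt2a, Kmt2d, Kmt2e, Prdm9, Prdm10, Setd1b, Setd2, Setd4, Setd5 and Tet3. The share of all tested genes that passed in none was not computed, so this count is not shown to be particular to the set.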

How the data were processed

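RNA was linearly amplified and sequenced from 12 libraries of sorted microglia, 3 in each of 4 groups. The authors deposited a table of raw read counts per Ensembl gene; FastQC, STAR, HTSeq and the build mm9 are named in the submitters' processing notes, and neither the annotation nor the strand setting is given in the sources used here. Library totals ran from 18090977 to 60495968 counts. Symbols, biotypes and exon lengths came from GENCODE M21; 254 identifiers had no match.

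Counts were tested with edgeR 4.0.16 in R 4.3.3: TMM scaling, filterByExpr with a minimum count of 10 and minimum total of 15, the robust quasi-likelihood test over 4 groups, and Benjamini-Hochberg adjustment over 18875 genes with a threshold of 0.05. CPM values are TMM-scaled. DESeq2 1.42.0, library totals, no filter, 2 sets of libraries, a covariate of 17 neuron and oligodendrocyte markers, the replicate block and each library left out were the alternatives. The script was tested on simulated data.

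Genes named are, per comparison, up to 8 called in each direction with the largest change and a mean log2 CPM of at least 1, the lowest p in each role, and a fixed set of members; other members and partner genes were chosen after their values were seen. The members and lists were chosen with earlier results of these data known. The main tests did not pair libraries, and replicate numbers in the titles were used only in the replicate block. For LPS in shielded mice the deviations of same-numbered libraries correlated at 0.112, 0.194 and 0.547. Those of differently numbered libraries ran from -0.4833 to 0.3988, so the numbers are no clear pairing. The closest replicates differed by a chi-square of 11.41 per degree of freedom, so none was a duplicate. Of the tested genes, 1 is counted in the totals and not reported by name here. Promoters came from RefSeq (GRCm38.p6).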

Additional observations from a re-analysis of the deposited data

Results flagged for a closer look

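For 9 genes the LPS effect itself differed between unshielded and shielded mice in the interaction test (log2 difference, unshielded minus shielded). It was 1.01 for Hdac5, 0.91 for Hdac11, 0.88 for Hdac9 and 0.70 for Kmt5c. It was -0.92 for Kmt5a, -0.77 for Hdac10, -0.65 for Hdac2, -0.65 for Kdm5c and -0.38 for Hdac3. Over all tested genes 4.06% had a higher and 9.25% a lower LPS effect in unshielded mice. Without the 2 libraries with conflicting labels 8 of these 9 calls ended, and that of Hdac5 did not. In that fit 0.482% of all tested genes had a higher and 0.387% a lower LPS effect in unshielded mice.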

How the results depend on the processing

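Counts are of the 62 tested genes, up and down in turn. For LPS in shielded mice (24 and 18), library totals gave 11 and 29, the marker covariate gave 8 up, leaving out the 2 libraries with conflicting labels gave 15 up, and grouping those 2 by the treatment field gave 0 and 0. The covariate also gave 22 down. With it LPS in unshielded mice gave 8 up and 24 down of the 62, against 22.5% and 18.4% of all tested genes. For LPS in shielded mice the shares over all tested genes were 21.4% and 48.4% with library totals and 20.2% and 14.4% with the covariate. They were 24.2% up with the 2 libraries left out and 0 and 0 by the treatment field. For LPS in unshielded mice (12 and 16), library totals gave 6 and 34 and the treatment field 0 and 1. The shares of all tested genes were 14.1% and 34.5%, and 0.487% and 0.249%. For the shield without LPS (3 and 1), the 2 libraries left out gave 0 and 0, the treatment field 0 and 0, the covariate 6 and 3, the groups of the comparison alone 7 and 4, and library totals 2 down. In the same order all tested genes gave 0.604% and 1.04%, 0 and 0, 7.43% and 10.9%, 5.76% and 9.81%, and 7.37% down. After LPS (11 and 12) the treatment field gave 2 and 1, against 3.28% and 4.43% of all tested genes. For the difference of LPS effects (4 and 5), the 2 libraries left out gave 1 and 0, the treatment field 0 and 0, and library totals and the covariate 3 down each. In the same order all tested genes gave 0.482% and 0.387%, 0 and 0, and 10.6% and 6.15% down. Leaving out 1 library gave 17 to 27 and 16 to 19 (LPS, shielded), 7 to 14 and 12 to 17 (LPS, unshielded), 0 to 2 and 0 to 1 (no LPS), 8 to 11 and 9 to 19 (after LPS), and 3 to 6 and 2 to 9 (difference). The 9 came without shielded LPS library 3, a fit in which 15.6% of all tested genes had a lower LPS effect in unshielded mice. The replicate block gave 9 and 6 for the shield without LPS (7.19% and 12.3% of all tested genes), where same-numbered libraries correlated at 0.14, -0.0165 and 0.123. For LPS in shielded mice it ended the calls of Ezh2, Kdm8 and Hdac8 and no other, and in the difference of LPS effects that of Kmt5c (0.69, adjusted p = 0.0504). Signs turned with library totals for Kdm1a (-0.05), Kdm4a (-0.09) and Kdm5d (-0.27) with LPS in shielded and Hdac1 (-0.03) in unshielded mice. With the treatment field they turned after LPS for Ezh1 (0.00), Hdac11 (-0.61) and Hdac5 (-0.37), and in the difference for Hdac11 (-0.36), Hdac5 (-0.35) and Kmt5c (-0.24). A gene past the threshold in neither setting was not counted as turned. The causes were not tested. The amplified RNA and 3 libraries a group limit what small changes can be seen.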

Other observations

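Of 15 genes of the Polycomb complex PRC1, 6 rose and 6 fell with LPS in shielded mice; in unshielded mice 2 rose and 5 fell. Of 9 genes for readers of acetylated histones 6 rose and 2 fell, and 2 rose and 1 fell. Of 7 sirtuins, the deacetylases that use NAD, 0 rose and 3 fell (Sirt3, Sirt4 and Sirt5) in shielded mice and 0 rose and 2 fell (Sirt4 and Sirt5) in unshielded mice; after LPS 4 were higher without the shield (Sirt1, Sirt3, Sirt5 and Sirt6). Over all tested genes 32.4% rose and 35.1% fell in shielded mice, 24.3% rose and 18.8% fell in unshielded mice, and 19.1% were higher without the shield after LPS. These lists were chosen with results known.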
